A study of Homo sapiens with 12 samples.

Results

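RNA bound by the J2 antibody was compared between IFNAR1-knockout and wild-type NCI-H1944 cells that had both been through a pulse of an MPS1 inhibitor. NCI-H1944 is a human lung adenocarcinoma cell line, and J2 recognises double-stranded RNA whatever its sequence. The comparison rests on 4 of the 12 libraries of the study, chosen by their labels: 2 labelled IFNAR1sg MPS1i, a knockout genotype made with a guide against IFNAR1, and 2 labelled SCR MPS1i, a wild-type genotype. All 4 came from cells given BAY-1217389 (MPS1i) at 100 nM for 48 h, freed of the drug and kept for another 24 h. The same genotypes in DMSO, the solvent control, gave 2 libraries each and served to set the genotype difference after the pulse against that without it. A further 2 libraries per genotype, from cells given interferon beta (IFNb) at 5 ng/ml in those 24 h, entered the model and are quoted as levels. The sources used here do not say whether the knockout cells were a clone or a pool, or whether the 2 libraries of a group came from separate cultures. The spread between libraries may thus be technical. The p-values rest on an estimate of that spread shared by all 6 groups and drawn largely from all features together. For gene sums it had 134 prior against 6 residual degrees of freedom. The p-values therefore do not measure the spread between the 2 libraries of a group alone. Input RNA was not analysed here, so the amount of an RNA and its double-stranded share cannot be told apart.

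IFNAR1 is one chain of the receptor for type I interferons, to which interferon beta belongs. When the receptor is bound, the kinases JAK1 and TYK2 phosphorylate transcription factors, STAT2 among them, which with IRF9 bind the interferon-stimulated response element (ISRE) in promoters of antiviral genes. MPS1 is the kinase of the spindle checkpoint, and its inhibition lets cells divide with unattached chromosomes. The comparison asks which end levels of J2-bound RNA after the pulse differ with the receptor.

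Promoters of the genes on which the results turn are shown because the ISRE is the site through which the receptor's transcription factors act. Each stretch runs from 250 bases before to 50 bases after the start of the gene in RefSeq (GRCh38.p14), 5′ to 3′ on the gene's strand. Capitals mark matches to the ISRE core (GAAA, any 2 bases, GAAA) on either strand, so that a match on the other strand reads TTTC, any 2 bases, TTTC. TRIM5 (chr11:5685025-5685324, minus strand), IFIT1 (chr10:89392373-89392672, plus strand), IFIH1 (chr2:162318635-162318934, minus strand) and TRIM14 (chr9:98119173-98119472, minus strand) were the listed sensing and antiviral genes with an ISRE core whose sums were lower in IFNAR1sg MPS1i with the smallest p. NTM (chr11:131370365-131370664, plus strand) was the gene with the smallest p in the other direction and held no match.
TRIM5: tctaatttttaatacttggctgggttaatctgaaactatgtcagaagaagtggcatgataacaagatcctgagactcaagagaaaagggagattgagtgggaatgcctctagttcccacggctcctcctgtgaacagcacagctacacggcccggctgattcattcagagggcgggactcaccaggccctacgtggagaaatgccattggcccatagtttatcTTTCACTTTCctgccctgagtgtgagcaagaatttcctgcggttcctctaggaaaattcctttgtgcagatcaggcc
IFIT1: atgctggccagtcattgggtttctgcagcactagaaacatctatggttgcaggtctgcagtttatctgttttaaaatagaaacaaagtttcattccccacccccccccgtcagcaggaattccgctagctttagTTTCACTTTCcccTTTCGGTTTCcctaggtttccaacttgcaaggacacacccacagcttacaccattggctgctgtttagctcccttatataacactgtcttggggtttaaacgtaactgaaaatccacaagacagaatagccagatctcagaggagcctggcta
IFIH1: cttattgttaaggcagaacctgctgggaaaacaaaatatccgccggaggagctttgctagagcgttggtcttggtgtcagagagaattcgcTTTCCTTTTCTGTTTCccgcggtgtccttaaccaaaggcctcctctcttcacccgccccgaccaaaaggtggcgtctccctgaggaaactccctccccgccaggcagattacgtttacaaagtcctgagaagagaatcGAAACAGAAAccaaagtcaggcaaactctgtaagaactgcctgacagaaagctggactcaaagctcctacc
TRIM14: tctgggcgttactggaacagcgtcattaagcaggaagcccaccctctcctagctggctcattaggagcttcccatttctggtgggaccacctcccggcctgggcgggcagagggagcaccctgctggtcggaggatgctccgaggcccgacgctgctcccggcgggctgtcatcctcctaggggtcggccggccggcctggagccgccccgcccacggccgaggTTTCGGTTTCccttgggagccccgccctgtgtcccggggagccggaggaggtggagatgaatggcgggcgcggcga
NTM: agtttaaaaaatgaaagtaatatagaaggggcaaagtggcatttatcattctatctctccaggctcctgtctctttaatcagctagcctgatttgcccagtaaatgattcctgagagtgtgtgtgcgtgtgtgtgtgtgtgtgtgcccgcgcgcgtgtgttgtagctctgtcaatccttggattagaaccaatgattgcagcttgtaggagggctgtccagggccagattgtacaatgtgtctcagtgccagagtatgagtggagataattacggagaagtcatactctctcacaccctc

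TRIM5 had 1 match, ending 18 bases before the gene's start, TRIM14 had 1 ending 17 bases before it, and IFIT1 had 2. These starts are those of RefSeq, and that of TRIM5 lies inside the longer span summed for the gene. IFIH1 had 3 matches, of which 2 overlap each other. Of all 27305 promoters searched, 3.65% held the ISRE core, and of the 10081 promoters found for gene sums that were tested 2.90% did. Promoters were found for 67 of the 100 genes lower in IFNAR1sg MPS1i, and 37.3% of them (25) held the core. Among the 626 promoters found for genes that were higher, 2.88% (18) held it, TENM2 being one of the 18. The TENM2 window lies upstream of the span summed for that gene. The core of the gamma-activated site (GAS), TTC, any 3 bases, GAA, reads the same on both strands in these letters and was in 7.88% of all promoters, 14.9% of those of lower genes and 5.43% of those of higher genes. A match describes the letters in this window and is not a measurement of binding.

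The deposited counts are reads per stranded genomic region, and the unit used below is CPM, reads scaled to library size with TMM factors. Reads were also summed per gene over regions that lie in exactly 1 gene of their strand and share no base with an exon of it, so a gene sum holds mostly intronic RNA, and per repeat subfamily and family. How strand was handled in counting is not stated, so a gene sum may hold reads of a gene on the other strand. Differences are log2 values with standard errors from edgeR's quasi-likelihood test, IFNAR1sg minus SCR, and a call means an adjusted p (Benjamini-Hochberg, over every feature tested at that level) under 0.05. Library totals were 7147801 and 7415227 reads in IFNAR1sg MPS1i, 4173239 and 5835711 in SCR MPS1i, 5076497 and 7098123 in IFNAR1sg DMSO, and 6801465 and 5863159 in SCR DMSO. Intronic regions held 32.8% and 31.0% of reads in IFNAR1sg MPS1i, against 28.0% and 27.8% in SCR MPS1i. Of the lung epithelium markers, KRT7, KRT8, KRT18, CDH1 and EPCAM had reads in gene sums in every library. KRT19 and NKX2-1 had 0 reads in gene sums in all libraries, as did 2 of the 10 fibroblast markers and 6 of the 12 immune cell markers. Exon-sharing regions are left out of these sums, so 0 reads there does not show that the RNA was absent. The summed level of all 10 fibroblast markers, tested or not, was 17.2 and 15.2 CPM in IFNAR1sg MPS1i, against 17.9 and 19.6 CPM in SCR MPS1i. That of all 12 immune cell markers was 9.83 and 5.10 CPM in IFNAR1sg MPS1i, against 7.58 and 5.64 CPM in SCR MPS1i. Of these markers the fibroblast gene ACTA2 differed by -0.96 ± 0.57 and the immune cell genes CD8A, ITGAM and CD4 by -0.52 ± 0.63, 1.09 ± 0.73 and 0.08 ± 0.65, and of the 2 fibroblast and 3 immune cell genes tested edgeR called 0, with 0 at an unadjusted p under 0.05, and DESeq2 called 0. In bulk samples fewer cells of a type and less RNA per cell cannot be told apart.

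A set of genes had high levels in the 2 IFNAR1sg MPS1i libraries. It holds the 174 genes called higher by more than 2 on the log2 scale, so its gap to SCR MPS1i follows from the choice. The sums added up to 4090 and 2166 CPM in IFNAR1sg MPS1i, against 368 and 340 CPM in SCR MPS1i. The same genes added up to 316 and 413 CPM in IFNAR1sg DMSO, against 284 and 276 CPM in SCR DMSO. For 168 of the 174, both IFNAR1sg MPS1i libraries lay above every other library, as they did for 2013 of all 14348 gene sums tested. The level in replicate 1 was a median of 1.85 times that in replicate 2 for these genes, against 1.09 for all gene sums tested and 1.07 for those called lower.

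The targeted gene was examined first. The IFNAR1 gene sum (chr21:33324477-33359862, plus strand) was 3.47 and 3.22 CPM in IFNAR1sg MPS1i, against 6.57 and 4.58 CPM in SCR MPS1i, from 24 and 24 reads against 26 and 26. It was 4.37 and 4.30 CPM in IFNAR1sg DMSO, against 4.63 and 5.23 CPM in SCR DMSO. The groups did not overlap, but the difference of -0.71 ± 0.40 after the pulse was not called (adjusted p = 0.36), nor was that of -0.18 ± 0.38 in DMSO (adjusted p = 0.95). One region of 424 bp within IFNAR1, which shares 1 base with an exon (chr21:33343676-33344099), separated the genotypes, and was chosen after its values were seen. It had 2.02 and 1.34 CPM in IFNAR1sg MPS1i, against 7.08 and 7.40 CPM in SCR MPS1i, a difference of -2.10 ± 0.40 (edgeR, adjusted p = 0.000992).

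That region had 2.73 and 1.69 CPM in IFNAR1sg DMSO, against 9.41 and 9.51 CPM in SCR DMSO, a difference of -2.12 ± 0.37 (edgeR, adjusted p = 0.00181). The genotype difference at the target was thus of the same size without the drug, and all 8 libraries lay on the side their label gives. Its call after the pulse is lost without IFNAR1sg MPS1i replicate 2, at -1.87 with an adjusted p of 0.0862. With exon-sharing regions kept in the sum, the IFNAR1 difference after the pulse was -1.34 and was called (adjusted p = 0.000544). The sources used here do not say where the guide cuts.

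Among 14348 gene sums, 100 were lower in IFNAR1sg MPS1i than in SCR MPS1i, 0.697% of those tested, and 824 were higher, 5.74%. Of the 10 lower sums with the smallest p, 8 belonged to the sensing or antiviral lists, and of the 10 higher ones 0 belonged to any of the 12 lists. These lists were chosen with earlier results of these data known. In 921 of the 924 called sums the 2 groups did not overlap, which largely follows from the call on the same libraries. This count was not made over all gene sums. In DMSO the same genotype comparison, which shares no library with it, called 5 sums lower (0.0348%) and 6 higher (0.0418%). The difference between the 2 differences, tested as an interaction term, was called lower in 48 sums (0.335%) and higher in 157 (1.09%). Without IFNAR1sg MPS1i replicate 1 it was called lower in 52 and higher in 72, without SCR MPS1i replicate 1 in 32 and 92, and without SCR MPS1i replicate 2 in 34 and 68. Of the 100 lower sums 39 were also called lower in that test. In DMSO edgeR called 0 of the 100 lower and 1 higher, with 11 lower and 9 higher at an unadjusted p under 0.05, and DESeq2 called 0 lower and 1 higher. The median difference of the 100 was -0.98 after the pulse and 0.04 in DMSO. The median of all gene sums was 0.16 after the pulse and 0.08 in DMSO, so the genes below are read against a small shift upwards. Without IFNAR1sg MPS1i replicate 1 the sums called were 90 lower and 296 higher. They were 69 lower and 498 higher without SCR MPS1i replicate 1, and 63 lower and 314 higher without SCR MPS1i replicate 2. DESeq2 called 76 lower and 436 higher. With exon-sharing regions kept in the sums they were 289 lower and 623 higher.

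**Figure D1:**
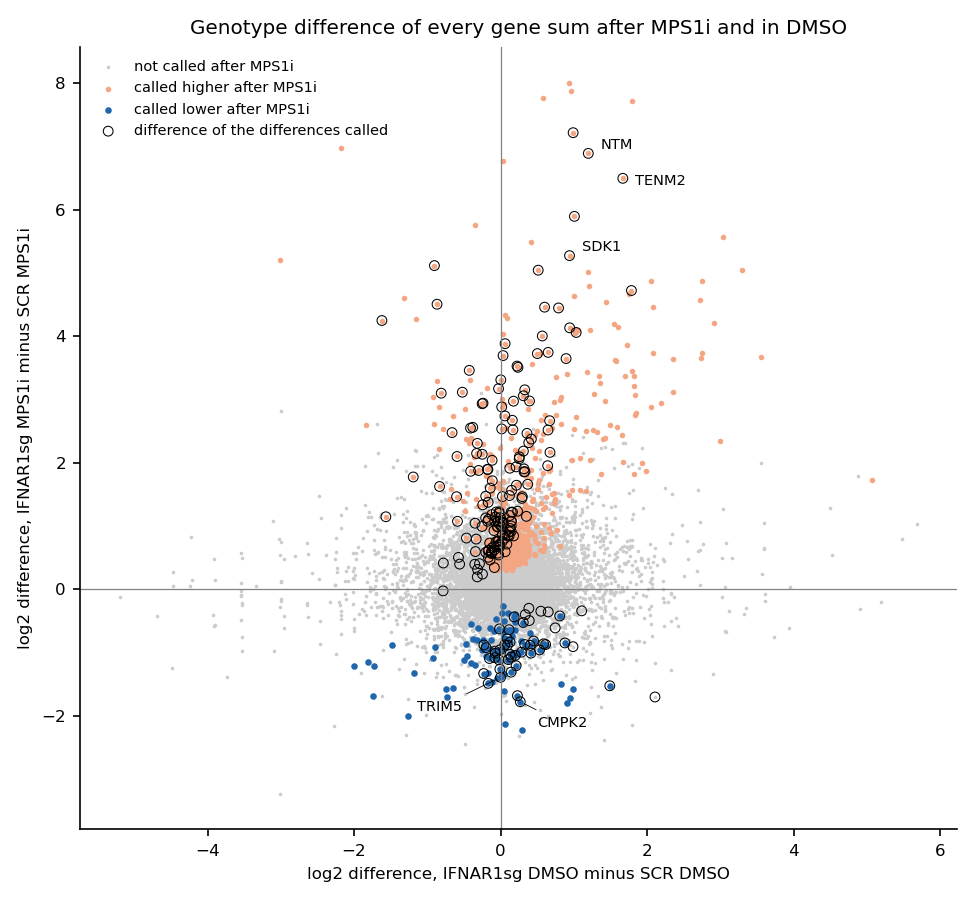
Each point is 1 of 14348 gene sums, with the log2 difference IFNAR1sg DMSO minus SCR DMSO on the horizontal axis and IFNAR1sg MPS1i minus SCR MPS1i on the vertical axis. Blue points are the 100 sums called lower after MPS1i, orange points the 824 called higher, and rings mark the 205 for which the 2 differences themselves differed.

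In the signalling chain downstream of the receptor, USP18 was lower after the pulse. USP18, a protease that removes ISG15 from proteins and restrains receptor signalling (chr22:18149899-18177397, plus strand), had 18.8 and 14.9 CPM in IFNAR1sg MPS1i, against 49.3 and 45.1 CPM in SCR MPS1i. The libraries in DMSO all lay between 3.46 and 5.32 CPM. Its difference after the pulse was -1.48 ± 0.17 (edgeR, adjusted p = 8.34e-13). STAT2, a transcription factor of the chain, had 6.94 and 4.16 CPM in IFNAR1sg MPS1i, against 5.56 and 12.9 CPM in SCR MPS1i, and the groups overlapped. With exon-sharing regions in its sum STAT2 was called lower (-1.16, adjusted p = 1.88e-06). The kinase JAK1 differed by 0.32 ± 0.19 (adjusted p = 0.408) and the kinase TYK2 by 0.23 ± 0.46 (adjusted p = 0.869). IFNAR2, IRF9, SOCS1 and SOCS3 had 0 reads in gene sums in all libraries.

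**Figure D2:**
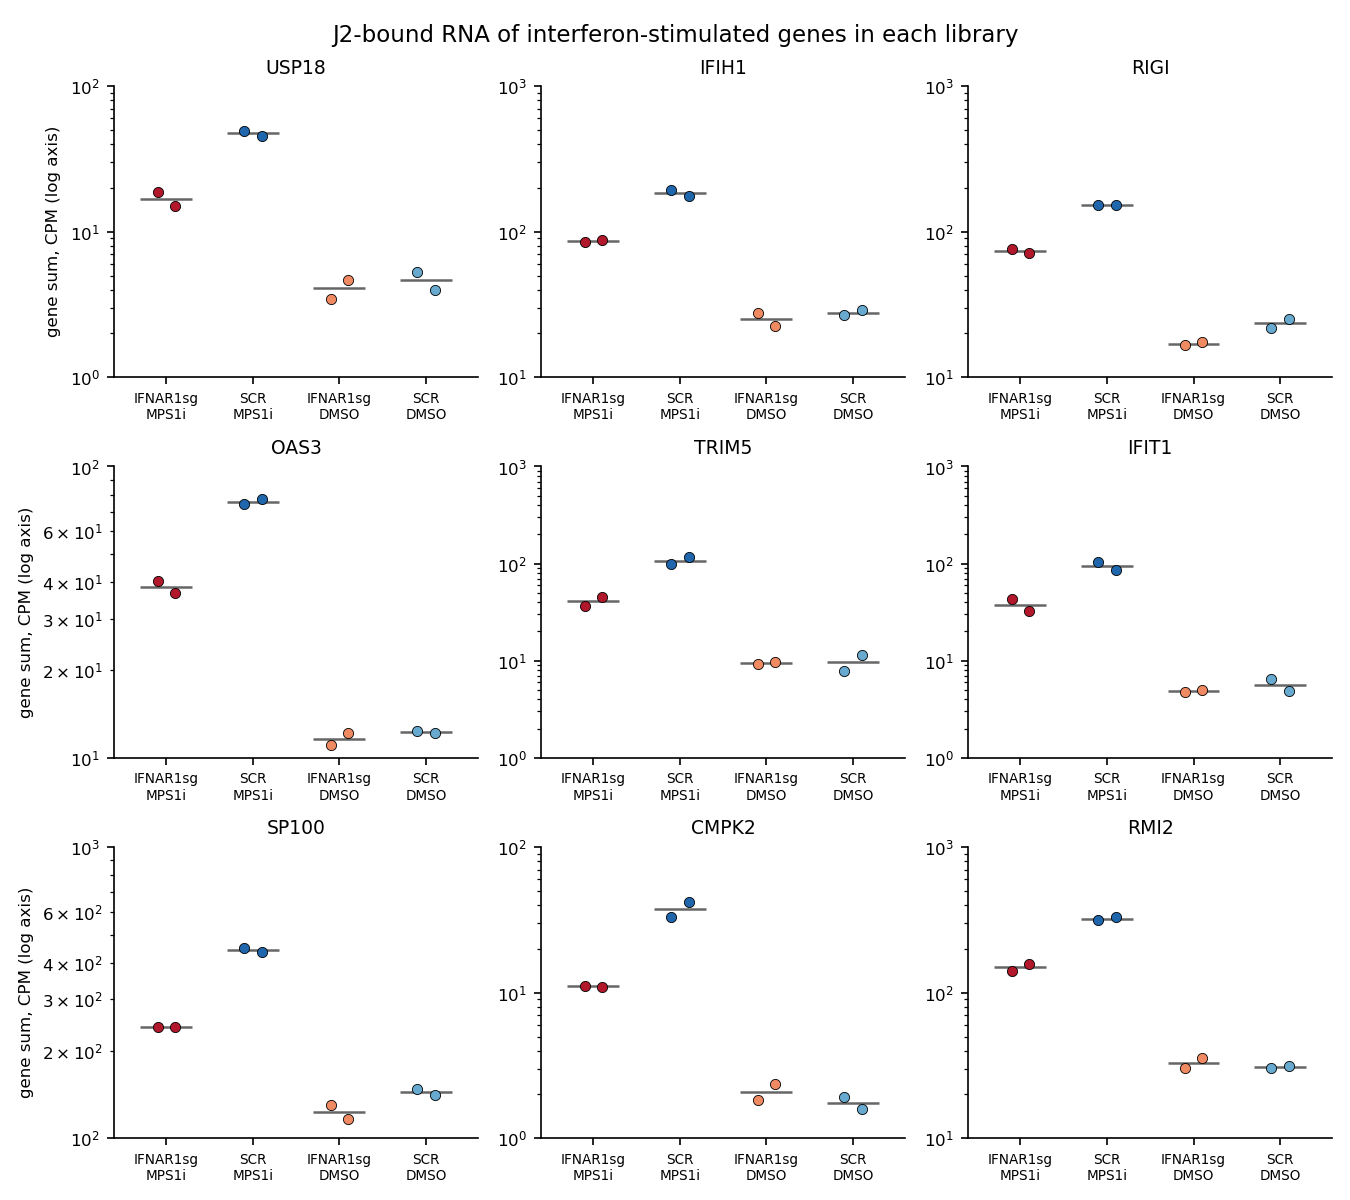
Gene sums in CPM (log axis) in each library of the 4 groups, for 9 interferon-stimulated genes; points are libraries and grey lines group means. In each panel both IFNAR1sg MPS1i libraries lie below both SCR MPS1i libraries and above all 4 DMSO libraries, for example USP18 at 18.8 and 14.9 CPM in IFNAR1sg MPS1i against 49.3 and 45.1 CPM in SCR MPS1i.

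Among genes that sense or process double-stranded RNA, edgeR called 10 of 20 measured members lower and 0 higher, with 12 at an unadjusted p under 0.05, of which 0 higher, and DESeq2 called 9 lower and 0 higher. Over all gene sums 0.697% were called lower and 5.74% higher, and at an unadjusted p under 0.05 the shares were 2.12% lower and 15.3% higher, against which these and the following counts are read. Because the lists were chosen with earlier results of these data known, the counts describe the lists and are not independent support. IFIH1, which encodes the long-duplex sensor MDA5 (chr2:162267079-162318703, minus strand), had 84.7 and 87.4 CPM in IFNAR1sg MPS1i, against 193 and 174 CPM in SCR MPS1i. It had 27.8 and 22.4 CPM in IFNAR1sg DMSO, against 26.6 and 28.8 CPM in SCR DMSO. The knockout libraries after the pulse were therefore below the wild type but above every library in DMSO. The difference after the pulse was -1.09 ± 0.11 (edgeR, adjusted p = 1.28e-14), and that in DMSO was -0.15 ± 0.14 (adjusted p = 0.84).

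RIGI, the sensor of short duplex ends (chr9:32455705-32526324, minus strand), had 75.4 and 71.1 CPM in IFNAR1sg MPS1i, against 153 and 152 CPM in SCR MPS1i. It had 16.6 and 17.3 CPM in IFNAR1sg DMSO, against 21.8 and 25.03 CPM in SCR DMSO, where the groups did not overlap either. The differences were -1.05 ± 0.12 (edgeR, adjusted p = 4.13e-13) after the pulse and -0.46 ± 0.16 (adjusted p = 0.432) in DMSO, and the difference between them was not called (-0.60 ± 0.20, adjusted p = 0.129). OAS1 and OAS3 make the 2'-5' oligoadenylates that activate RNase L. OAS1 (chr12:112906777-112933222, plus strand) had 31.4 and 27.4 CPM in IFNAR1sg MPS1i, against 57.4 and 60.4 CPM in SCR MPS1i. OAS3 (chr12:112938352-112973249, plus strand) had 40.3 and 36.9 CPM in IFNAR1sg MPS1i, against 74.1 and 77.5 CPM in SCR MPS1i. Both fell, with differences of -1.01 ± 0.15 for OAS1 and -0.98 ± 0.14 for OAS3 (edgeR, adjusted p = 1.21e-07 and 8.39e-09).

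The other called members were DHX58, which encodes the third RIG-I-like receptor (-1.68), OAS2 (-0.88), OASL (-0.65), TRIM25, a ubiquitin ligase of the RIG-I pathway (-0.64), EIF2AK2, the kinase PKR (-0.64), and ZC3HAV1, the zinc finger antiviral protein (-0.43). They are named here after their values were seen. ADAR, the editing enzyme whose longer isoform is interferon-induced, had 34.4 and 39.1 CPM in IFNAR1sg MPS1i, against 49.0 and 40.3 CPM in SCR MPS1i, and was not called (-0.27 ± 0.15, adjusted p = 0.349). With exon-sharing regions in its sum ADAR was called lower (-0.65, adjusted p = 3.95e-05). TBK1, the kinase downstream of MAVS, differed by 0.19 ± 0.19 (adjusted p = 0.684), and DICER1, which cuts duplex RNA into short pieces, by 0.31 ± 0.21 (adjusted p = 0.491). The median over the 20 members was -0.64. In 12 of the 20, both IFNAR1sg MPS1i libraries lay above both IFNAR1sg DMSO libraries, a count that was not made over all gene sums.

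The antiviral effectors moved most widely. Of 58 measured members of 64 listed, edgeR called 41 lower and 0 higher, all 58 had a negative difference, and in 55 the groups did not overlap. At an unadjusted p under 0.05 there were 49, of which 0 higher, and DESeq2 called 36 lower and 0 higher. Their median was -0.92 after the pulse and 0.09 in DMSO, against 0.16 and 0.08 over all gene sums. Summed over all 64 listed genes, the level was 1835 and 1742 CPM in IFNAR1sg MPS1i, against 3408 and 3214 CPM in SCR MPS1i. It was 879 and 886 CPM in IFNAR1sg DMSO, against 885 and 837 CPM in SCR DMSO. The knockout thus ended between the wild type after the pulse and both genotypes in DMSO, and 52 of the 58 members had both IFNAR1sg MPS1i libraries above both IFNAR1sg DMSO libraries. Counts without overlap or above IFNAR1sg DMSO were not made over all gene sums, so no background share stands beside them. For 21 members the difference after the pulse also differed from that in DMSO.

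TRIM5, a restriction factor for retroviral capsids (chr11:5663557-5938619, minus strand), had 36.4 and 45.8 CPM in IFNAR1sg MPS1i, against 98.8 and 116 CPM in SCR MPS1i. Its DMSO libraries lay between 7.77 and 11.4 CPM. The difference was -1.39 ± 0.12 (edgeR, adjusted p = 1.66e-18) after the pulse and 0.00 in DMSO, and the difference between them was -1.39 ± 0.24 (adjusted p = 1.42e-05). Most of the span summed for TRIM5 lies upstream of the RefSeq start whose promoter is shown above. IFIT1, which binds foreign RNA caps (chr10:89392546-89406486, plus strand), had 42.8 and 32.6 CPM in IFNAR1sg MPS1i, against 104 and 85.6 CPM in SCR MPS1i, and differed by -1.33 ± 0.13 (adjusted p = 2.88e-15). SP100, a component of PML nuclear bodies (chr2:230415942-230544090, plus strand), had 241 CPM in both IFNAR1sg MPS1i libraries, against 449 and 438 CPM in SCR MPS1i. Its difference was smaller, -0.88 ± 0.09 (adjusted p = 3.47e-14), on a level of 117 to 148 CPM in DMSO.

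CMPK2, a mitochondrial nucleotide kinase next to RSAD2 (chr2:6840570-6866635, minus strand), had 11.1 and 11.01 CPM in IFNAR1sg MPS1i, against 33.1 and 42.1 CPM in SCR MPS1i. Its DMSO libraries lay between 1.58 and 2.35 CPM, and both genotypes lay far above them after the pulse, with a difference of -1.78 ± 0.19 (edgeR, adjusted p = 4.45e-14). TRIM14, an adaptor of MAVS signalling (chr9:98069275-98119212, minus strand), was the most abundant of the 10 named lower genes, at 510 and 476 CPM in IFNAR1sg MPS1i, against 901 and 795 CPM in SCR MPS1i. It had 249.7 and 249.4 CPM in IFNAR1sg DMSO, against 245 and 224 CPM in SCR DMSO, and its difference after the pulse was -0.78 ± 0.08 (adjusted p = 4.45e-14). DDX60L, a helicase-like antiviral gene (chr4:168356735-168537786, minus strand), had 79.9 and 64.8 CPM in IFNAR1sg MPS1i, against 163 and 143 CPM in SCR MPS1i, a difference of -1.08 ± 0.12 (adjusted p = 4.52e-13). PLSCR1, a phospholipid scramblase with antiviral activity (chr3:146515180-146544864, minus strand), had 51.4 and 49.7 CPM in IFNAR1sg MPS1i, against 109 and 97.1 CPM in SCR MPS1i, a difference of -1.03 ± 0.13 (adjusted p = 7.04e-11).

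Read by gene family, a grouping made after the values were seen, the called differences ran from -1.996 in GBP3 to -0.52 in DDX60. IFIT2 (-1.58) and IFIT3 (-1.26) fell with IFIT1, and IFIT5 was not called (-0.57, adjusted p = 0.53). MX1 (-1.21) and MX2 (-1.69), dynamin-like GTPases, both fell. PARP9 (-0.88), its partner DTX3L (-0.87), PARP12 (-0.88) and PARP14 (-0.81) fell, while PARP10 had 22.5 and 32.1 CPM in IFNAR1sg MPS1i, against 31.6 and 43.9 CPM in SCR MPS1i, and was not called (-0.48 ± 0.17, adjusted p = 0.0633). PARP10 was called without IFNAR1sg MPS1i replicate 2 (-0.80, adjusted p = 0.00154), without SCR MPS1i replicate 1 (-0.68, adjusted p = 0.0298) and without either SCR DMSO replicate (-0.49 in both cases, adjusted p = 0.0339 and 0.0348). Of the APOL genes, APOL1 fell (-0.76), and APOL2 (-0.53 ± 0.21, adjusted p = 0.111) and APOL6 (-0.48 ± 0.25, adjusted p = 0.287) were not called, but APOL2 was called with exon-sharing regions in its sum (-0.57, adjusted p = 0.00016). ISG15, the ubiquitin-like modifier, had 14.2 and 11.5 CPM in IFNAR1sg MPS1i, against 15.9 and 18.3 CPM in SCR MPS1i, and was not called (-0.42 ± 0.23, adjusted p = 0.323).

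Outside the lists, RMI2, a subunit of the BLM dissolvasome complex (chr16:11249619-11381662, plus strand), had the smallest p of the lower sums. Whether the reads of this span and of CHROMR below came in part from genes on the other strand was not tested. It had 140 and 158 CPM in IFNAR1sg MPS1i, against 314 and 328 CPM in SCR MPS1i. It had 30.6 and 35.3 CPM in IFNAR1sg DMSO, against 30.4 and 31.2 CPM in SCR DMSO, so the genotypes differed after the pulse and lay together without it. The difference was -1.11 ± 0.10 (edgeR, adjusted p = 6.81e-19) after the pulse, 0.11 ± 0.12 in DMSO (adjusted p = 0.889), and -1.22 ± 0.16 between the 2 (adjusted p = 3.08e-09). CHROMR, an antisense non-coding RNA (chr2:178413939-178440243, plus strand), had 192 and 180 CPM in IFNAR1sg MPS1i, against 370 and 334 CPM in SCR MPS1i. Its level in the knockout was close to the 163 and 154 CPM of IFNAR1sg DMSO, and its difference after the pulse was -0.92 ± 0.09 (adjusted p = 2.36e-15).

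The knockout cells still carried raised levels of these RNAs after interferon itself. RMI2 had 138 and 150 CPM in IFNAR1sg IFNb, against 816 and 981 CPM in SCR IFNb. TRIM5 had 42.8 and 33.6 CPM in IFNAR1sg IFNb, against 525 and 488 CPM in SCR IFNb. In both genes the IFNAR1sg IFNb libraries lay below SCR IFNb and above both genotypes in DMSO, close to the levels of IFNAR1sg MPS1i.

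**Figure D3:**
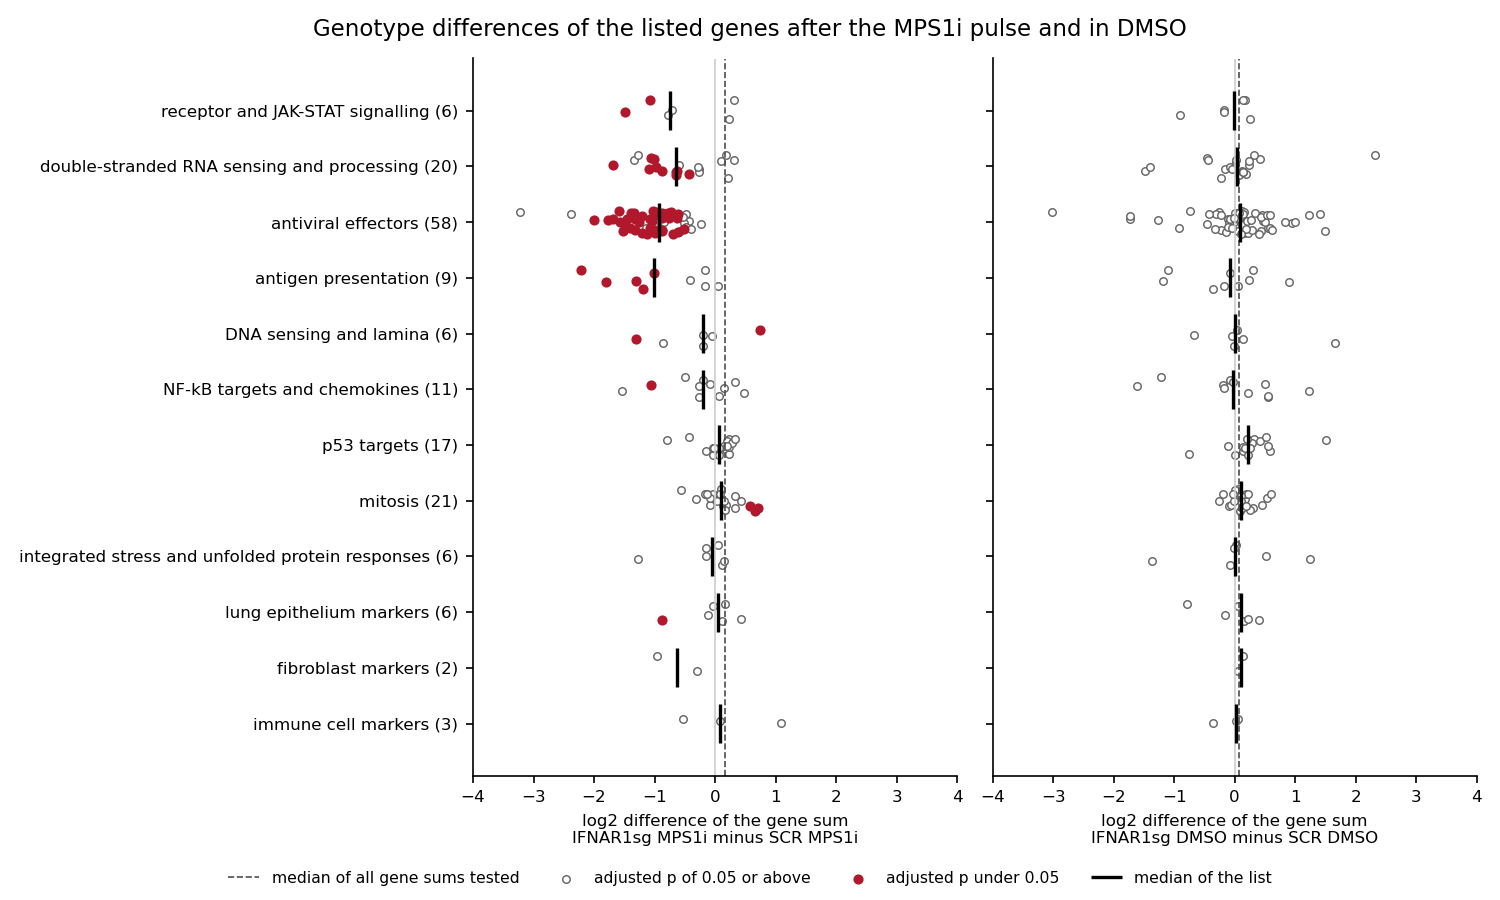
Log2 differences of every measured member of the 12 gene lists, IFNAR1sg MPS1i minus SCR MPS1i on the left and IFNAR1sg DMSO minus SCR DMSO on the right. Filled red points were called, open points were not, thick black ticks are list medians and the dashed line is the median of all gene sums; the antiviral effectors have a median of -0.92 on the left and 0.09 on the right.

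Antigen presentation genes were measured for 9 of 18 listed members, of which edgeR called 5 lower and 0 higher, with the same 5 and 0 at an unadjusted p under 0.05, and DESeq2 called 3 lower and 0 higher. NLRC5, the transactivator of MHC class I genes (chr16:56989485-57083531, plus strand), had 25.7 and 24.7 CPM in IFNAR1sg MPS1i, against 51.1 and 50.4 CPM in SCR MPS1i, a difference of -1.01 ± 0.15 (edgeR, adjusted p = 7.49e-08). PSMB9, an immunoproteasome subunit, had 11.99 and 13.6 CPM in IFNAR1sg MPS1i, against 25.5 and 37.2 CPM in SCR MPS1i. It was also lower in IFNAR1sg DMSO, at 2.73 and 2.48 CPM, against 4.50 and 7.45 CPM in SCR DMSO, and its differences were -1.31 ± 0.19 (adjusted p = 1.59e-08) after the pulse and -1.18 ± 0.31 (adjusted p = 0.174) in DMSO. HLA-F, a non-classical class I molecule, differed by -2.22 ± 0.52 (adjusted p = 0.00137) and PSME2, a proteasome activator subunit, by -1.80 ± 0.56 (adjusted p = 0.0284). HLA-E, another non-classical class I molecule, named after its values were seen, was the fifth, at 3.47 and 2.42 CPM in IFNAR1sg MPS1i, against 7.84 and 5.81 CPM in SCR MPS1i (-1.20 ± 0.39, adjusted p = 0.0461). HLA-F is not called without SCR MPS1i replicate 2 (adjusted p = 0.16). PSME2 is not called without either SCR MPS1i replicate or without IFNAR1sg MPS1i replicate 2, with adjusted p-values of up to 0.278. TAPBP (-0.17 ± 0.21), which loads peptides on class I molecules, and ERAP1 (0.05 ± 0.34) and ERAP2 (-0.42 ± 0.44), which trim them, were not called (adjusted p = 0.748, 0.962 and 0.702). HLA genes share sequence, so their reads may be split or shared between members.

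Of the 6 measured genes of DNA sensing and the nuclear lamina, 1 fell and 1 rose. SAMHD1, a nuclease of deoxynucleotides that is interferon-inducible in many cells (chr20:36889773-36951901, minus strand), had 9.39 and 11.3 CPM in IFNAR1sg MPS1i, against 23.5 and 27.5 CPM in SCR MPS1i, a difference of -1.31 ± 0.21 (edgeR, adjusted p = 7.83e-07). LMNB1, lamin B1 of the nuclear lamina (chr5:126776623-126837020, plus strand), had 30.9 and 24.6 CPM in IFNAR1sg MPS1i, against 15.4 and 17.4 CPM in SCR MPS1i. It had 55.5 and 65.1 CPM in IFNAR1sg DMSO, against 59.98 and 57.7 CPM in SCR DMSO, so the knockout after the pulse stood between the wild type after the pulse and both genotypes in DMSO. Its difference was 0.74 ± 0.17 (adjusted p = 0.00134), but with exon-sharing regions in the sum it was -0.27 and not called, and the call is also lost without IFNAR1sg MPS1i replicate 1 (0.57) or SCR MPS1i replicate 1 (0.67). After interferon beta LMNB1 had 53.5 and 49.8 CPM in IFNAR1sg IFNb, against 14.3 and 13.5 CPM in SCR IFNb. CGAS, the sensor of cytosolic DNA, had 46.0 and 50.1 CPM in IFNAR1sg MPS1i, against 61.2 and 50.4 CPM in SCR MPS1i, and was not called (-0.21 ± 0.13, adjusted p = 0.438). LMNA, the gene of lamins A and C (-0.04 ± 0.14, adjusted p = 0.922), and ENPP1, which degrades the product of CGAS (-0.20 ± 0.29, adjusted p = 0.808), were not called.

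The lists outside the interferon response held few calls. Among 11 measured NF-kB targets and chemokines, CXCL8, the neutrophil chemokine IL-8, fell to 18.5 and 11.9 CPM in IFNAR1sg MPS1i, against 37.2 and 26.6 CPM in SCR MPS1i (-1.06 ± 0.22, edgeR, adjusted p = 0.00024). It is not called without SCR MPS1i replicate 1 (-0.81, adjusted p = 0.103). CXCL5 was nearly level, at 82.1 and 66.6 CPM in IFNAR1sg MPS1i, against 74.1 and 81.9 CPM in SCR MPS1i (-0.07 ± 0.13, adjusted p = 0.844). The NF-kB subunits NFKB1 (0.32 ± 0.16, adjusted p = 0.29) and RELB (0.15 ± 0.17, adjusted p = 0.715) were not called. CXCL10 had 0 and 0 reads outside exons in IFNAR1sg MPS1i, against 0 and 8 in SCR MPS1i. IFNB1, which encodes interferon beta, had 0 reads outside exons in all libraries. Regions that share a base with an exon are left out of these sums, so they cannot tell whether IFNB1 RNA was present.

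Of the 17 measured p53 targets edgeR called 0, with 0 at an unadjusted p under 0.05, DESeq2 called 0, and their median was 0.07. CDKN1A, the cell cycle inhibitor p21, had 19.7 and 22.4 CPM in IFNAR1sg MPS1i, against 19.97 and 20.09 CPM in SCR MPS1i, with all 4 DMSO libraries between 3.49 and 4.37 CPM. MDM2, the ubiquitin ligase of p53, had 257 and 244 CPM in IFNAR1sg MPS1i, against 264 and 251 CPM in SCR MPS1i. Both p53 targets thus lay together in the 2 genotypes, with differences of 0.07 ± 0.22 for CDKN1A and -0.04 ± 0.10 for MDM2. TNFRSF10B, a death receptor (0.07 ± 0.11), and DDB2, a damage recognition protein (0.19 ± 0.15), were not called either. Of the 6 measured stress response genes edgeR called 0, with 1 at an unadjusted p under 0.05, and DESeq2 called 0. ATF3, a stress transcription factor, differed by -0.15 ± 0.16 and the cystine transporter SLC7A11 by 0.04 ± 0.10. TRIB3, a pseudokinase induced by stress, differed by 0.11 ± 0.25 and was called higher with exon-sharing regions in its sum (0.72, adjusted p = 0.00738).

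Of 21 measured mitosis genes edgeR called 3 higher and 0 lower, with 4 at an unadjusted p under 0.05, all higher, beside 5.74% called higher and 15.3% higher at that unadjusted p among all gene sums. DESeq2 called 1 higher and 0 lower, and with exon-sharing regions in the sums edgeR called 0 higher and 2 lower. TPX2, a spindle assembly factor, had 29.6 and 31.0 CPM in IFNAR1sg MPS1i, against 22.2 and 16.6 CPM in SCR MPS1i, and 66.5 to 74.1 CPM in DMSO. Its difference was 0.67 ± 0.16 (edgeR, adjusted p = 0.00279), but with exon-sharing regions in the sum it was -0.27 and not called, and the call is also lost without SCR MPS1i replicate 2 (0.45, adjusted p = 0.361). ANLN, a cytokinesis scaffold, rose by 0.58 ± 0.18 (adjusted p = 0.0356) and CENPE, a kinetochore motor, by 0.71 ± 0.23 (adjusted p = 0.0397). Both calls are lost without either SCR MPS1i replicate or without IFNAR1sg MPS1i replicate 1, with adjusted p-values of up to 0.552 for ANLN and 0.606 for CENPE. ASPM (0.14 ± 0.14), CCNB1 (0.13 ± 0.18) and ECT2 (-0.13 ± 0.13) were not called, though ECT2 was called lower with exon-sharing regions in its sum (-0.44, adjusted p = 0.00245), and the list's median of 0.10 lay near that of all gene sums.

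KRT18, a keratin of simple epithelia (chr12:52948871-52952901, plus strand), was the 1 called member among 6 measured lung epithelium markers. It had 22.1 and 19.2 CPM in IFNAR1sg MPS1i, against 41.0 and 35.6 CPM in SCR MPS1i. It had 27.1 and 31.4 CPM in IFNAR1sg DMSO, against 26.7 and 17.4 CPM in SCR DMSO, where the groups did not overlap and IFNAR1sg lay above SCR. The difference was -0.88 ± 0.17 (edgeR, adjusted p = 4.1e-05) after the pulse, and its partner keratin KRT8 differed by -0.04 ± 0.16 (adjusted p = 0.939). With exon-sharing regions in its sum KRT8 was called lower too (-0.48, adjusted p = 0.000586). CDH1, an adhesion protein of epithelia (0.43 ± 0.18, adjusted p = 0.139), and KRT7 (0.12 ± 0.19, adjusted p = 0.824) were not called. KRT18 has many processed copies in the genome, so its reads are uncertain.

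The 824 higher sums were of another kind. NTM, a neuronal adhesion protein (chr11:131370478-132336822, plus strand), had 319 and 155 CPM in IFNAR1sg MPS1i, against 1.77 and 2.11 CPM in SCR MPS1i. It had 2.18 and 20.1 CPM in IFNAR1sg DMSO, against 5.72 and 4.75 CPM in SCR DMSO, so replicate 2 of the knockout in DMSO also lay above the other 3. The difference was 6.89 ± 0.29 (edgeR, adjusted p = 3.48e-46) after the pulse and 1.198 ± 0.30 (adjusted p = 0.112) in DMSO. TENM2, a teneurin adhesion receptor (chr5:167284799-168264157, plus strand), had 166 and 80.4 CPM in IFNAR1sg MPS1i, against 0.506 and 1.94 CPM in SCR MPS1i. SDK1, an immunoglobulin-family adhesion protein (chr7:3301448-4269000, plus strand), had 89.4 and 40.7 CPM in IFNAR1sg MPS1i, against 1.26 and 1.94 CPM in SCR MPS1i. In both of these genes, as in NTM, replicate 1 of IFNAR1sg MPS1i was about double replicate 2. The differences were 6.497 ± 0.29 for TENM2 and 5.28 ± 0.31 for SDK1 (edgeR, adjusted p = 5.99e-45 and 1.14e-31). TENM2 and TENM3 were also called higher in IFNAR1sg DMSO, by 1.67 ± 0.35 (edgeR, adjusted p = 0.0104) and 1.79 ± 0.40 (adjusted p = 0.0275). DESeq2 called neither in DMSO, and both calls are lost without IFNAR1sg DMSO replicate 2 or without SCR DMSO replicate 2.

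The other named genes of this kind were TENM3, a teneurin (4.72 ± 0.29), MAGI2, a junction scaffold (4.45 ± 0.30), FRMD6, a FERM-domain protein of the Hippo pathway (4.01 ± 0.26), ANO2, a calcium-activated chloride channel (3.53 ± 0.27), EDIL3, an extracellular integrin ligand (3.17 ± 0.24), FRMD5, a FERM-domain protein (2.98 ± 0.20), and RORA, a nuclear receptor (2.07 ± 0.15). In all 10 named genes replicate 1 was above replicate 2, by 1.64 to 2.20 times. In the 10 named lower genes the ratio ran from 0.796 to 1.31. The 10 higher genes summed to 1218 and 606 CPM in IFNAR1sg MPS1i, against 59.2 and 61.8 CPM in SCR MPS1i. They summed to 82.1 and 115 CPM in IFNAR1sg DMSO, against 71.7 and 68.8 CPM in SCR DMSO. GNGT1, a subunit of a retinal G protein, was among the 6 higher sums with the smallest p for the difference between MPS1i and DMSO, at 71.5 and 43.1 CPM in IFNAR1sg MPS1i, against 9.61 and 9.87 CPM in SCR MPS1i (2.55 ± 0.21 after the pulse and -0.41 ± 0.25 in DMSO). Among the 6 lower ones was the non-coding RNA ENSG00000278996 (chr21:8197620-8227646, plus strand), at 63.1 and 57.4 CPM in IFNAR1sg MPS1i, against 62.9 and 88.1 CPM in SCR MPS1i. It had 41.5 and 57.6 CPM in IFNAR1sg DMSO, against 29.7 and 16.2 CPM in SCR DMSO, so its difference lay in DMSO (1.11 ± 0.17, edgeR, adjusted p = 4.6e-06) and was not called after the pulse (-0.34 ± 0.15, adjusted p = 0.197). The call in DMSO was not made by DESeq2 and is lost without IFNAR1sg DMSO replicate 2 or without SCR DMSO replicate 2.

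**Figure D4:**
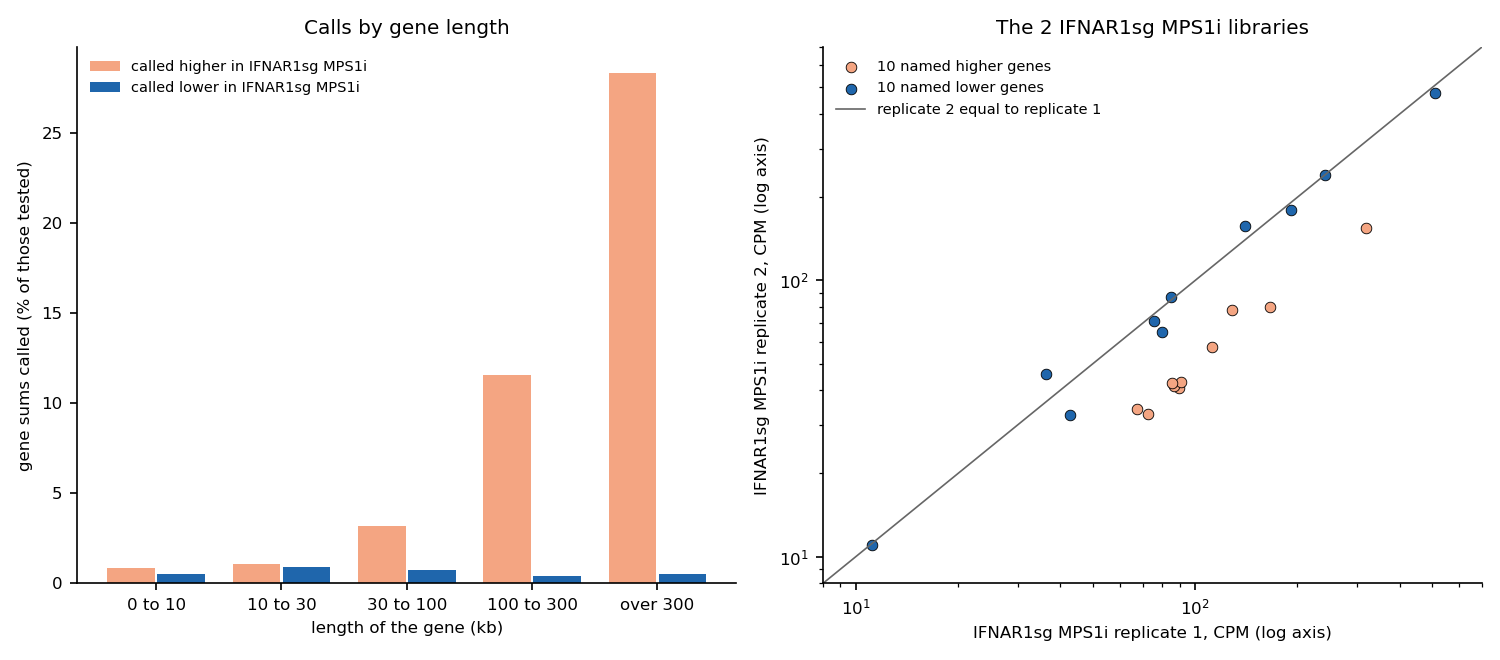
Left, percentage of gene sums called higher and lower in IFNAR1sg MPS1i by length of the gene; the share called higher is 0.846% up to 10 kb and 28.3% over 300 kb. Right, CPM in replicate 1 against replicate 2 of IFNAR1sg MPS1i (log axes) for the 10 named higher and 10 named lower genes; the higher genes lie below the line of equality and the lower genes around it.

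Calls in that direction were more frequent among long genes. The share of sums called higher was 0.846% for genes up to 10 kb, 1.06% from 10 to 30 kb, 3.17% from 30 to 100 kb, 11.6% from 100 to 300 kb and 28.3% above 300 kb. The median difference after the pulse was 0.01 in the shortest class and 0.35 in the longest, and in DMSO it was 0.07 and 0.14. Without IFNAR1sg MPS1i replicate 1 the shares called higher were 0.538% in the shortest class and 12.8% in the longest. The median length was 203 kb for the genes called higher, 34.3 kb for those called lower and 46.0 kb for all tested.

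Of the 824 higher sums 148 were also called higher in the test of the difference between MPS1i and DMSO, and 4 were called higher in DMSO. The genes summed to 39321 and 30801 CPM in IFNAR1sg MPS1i, against 21665 and 20668 CPM in SCR MPS1i. They summed to 32948 and 33317 CPM in IFNAR1sg DMSO, against 32761 and 29603 CPM in SCR DMSO, and were chosen for lying above SCR MPS1i. All 14348 sums added up to 314976 and 286596 CPM in IFNAR1sg MPS1i, against 275626 and 266018 CPM in SCR MPS1i, and to 331249 and 334856 CPM in IFNAR1sg DMSO, against 328867 and 310122 CPM in SCR DMSO. Of the 824, 457 had both IFNAR1sg MPS1i libraries above all other 10 libraries, and in 755 replicate 1 was above replicate 2. Of all 14348 sums, 2013 had both above the other 10 libraries, and in 9398 replicate 1 was above replicate 2. The fibroblast marker PDGFRB, which was not measured well enough to be tested, had 11 and 9 reads in IFNAR1sg MPS1i, against 0 and 0 in SCR MPS1i, while FAP, another, had 13.4 and 10.2 CPM in IFNAR1sg MPS1i, against 13.9 and 15.2 CPM in SCR MPS1i. The part of other cells or of the make-up of the 2 libraries in these differences was not tested.

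At the level of single regions, 288 of 89111 were lower in IFNAR1sg MPS1i (0.323%) and 70 were higher (0.0786%). In DMSO 57 were lower (0.064%) and 12 higher (0.0135%), and the difference between MPS1i and DMSO was called lower in 45 (0.0505%) and higher in 10 (0.0112%). Of the 288 lower regions 33 were also called in that difference and 4 were called lower in DMSO. By class, 149 of 9630 exon-sharing regions were lower and 3 higher, 58 of 51774 intronic regions were lower and 38 higher, 54 of 15213 antisense regions were lower and 12 higher, and 27 of 12494 intergenic regions were lower and 17 higher. Most exon-sharing regions share 1 or 2 bases with an exon, so their reads may belong to the exon. Both counts rest on single libraries. They were 209 lower and 20 higher without IFNAR1sg MPS1i replicate 1, 142 and 41 without IFNAR1sg MPS1i replicate 2, 131 and 25 without SCR MPS1i replicate 1, and 166 and 22 without SCR MPS1i replicate 2. DESeq2 called 274 lower and 31 higher.

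Some of the lower regions lay at interferon-related genes of the lists, on their strand, opposite them or past their ends. The sources used here do not say how strand was handled in counting, so reads of a gene and of its antisense partner may not be separate. Of the 288, 95 lay in a gene of the signalling, sensing, effector or antigen presentation lists, 37 lay opposite one, 21 began within 10000 bp past the end of one, and 135 lay elsewhere. Together 53.1% of the 288 lay in, opposite or past such a gene, as did 1.02% of all regions tested. The lists were chosen with earlier results of these data known, so these shares are not independent of the calls. Of the 70 higher regions 0 did. The region with the smallest p was 48403 bp on the strand opposite MX2 (chr21:41361814-41410216, minus strand). It had 18.2 and 22.7 CPM in IFNAR1sg MPS1i, against 74.3 and 91.8 CPM in SCR MPS1i, a difference of -2.02 ± 0.18 (edgeR, adjusted p = 2.87e-13). In DMSO it had 2.002 and 1.69 CPM in IFNAR1sg, against 3.54 and 3.64 CPM in SCR, so the genotypes did not overlap there either. Its difference in DMSO was -0.97 ± 0.34 (edgeR, adjusted p = 0.456), and the difference between MPS1i and DMSO was not called (-1.06 ± 0.41, adjusted p = 0.584).

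RIGI gave 2 of the 10 named lower regions. A region of 202 bp sharing 1 base with a RIGI exon (chr9:32466441-32466642, minus strand) had 69.6 and 69.3 CPM in IFNAR1sg MPS1i, against 224 and 198 CPM in SCR MPS1i, a difference of -1.60 ± 0.15 (edgeR, adjusted p = 1.21e-12). A region of 70414 bp that begins 714 bp past the end of RIGI and runs opposite ACO1 (chr9:32384578-32454991, minus strand) had 178 and 152 CPM in IFNAR1sg MPS1i, against 485 and 419 CPM in SCR MPS1i. It had 32.0 and 29.6 CPM in IFNAR1sg DMSO, against 32.3 and 39.9 CPM in SCR DMSO. The region downstream therefore followed the gene, with differences of -1.45 ± 0.14 (adjusted p = 1.76e-12) after the pulse and -0.23 ± 0.15 (adjusted p = 0.852) in DMSO.

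A similar pair lay at the OAS cluster on chromosome 12. The exon-sharing region of OAS2 (chr12:112998410-112999191, plus strand) had 105 and 84.1 CPM in IFNAR1sg MPS1i, against 245 and 241 CPM in SCR MPS1i (-1.36 ± 0.14, edgeR, adjusted p = 2e-10). A region of 105355 bp in the non-coding gene ENSG00000257452, opposite OAS1, OAS2 and OAS3 (chr12:112908678-113014032, minus strand), had 380 and 514 CPM in IFNAR1sg MPS1i, against 929 and 1087 CPM in SCR MPS1i (-1.17 ± 0.13, adjusted p = 9.25e-10). Both strands of the cluster were thus lower in the knockout after the pulse. In DMSO the minus-strand region had 72.1 and 75.6 CPM in IFNAR1sg, against 85.7 and 122 CPM in SCR, so the genotypes did not overlap there either. Its difference between MPS1i and DMSO was not called (-0.68 ± 0.19, edgeR, adjusted p = 0.218). A region within LIPA, opposite IFIT2 (chr10:89301917-89308325, minus strand), had 20.1 and 21.7 CPM in IFNAR1sg MPS1i, against 61.2 and 72.9 CPM in SCR MPS1i (-1.68 ± 0.18, edgeR, adjusted p = 4.29e-10). For the LIPA region too the difference between MPS1i and DMSO was not called (-1.41 ± 0.35, adjusted p = 0.108).

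Further named lower regions each shared 1 base with an exon. They lay in IFI16, a nuclear DNA sensor (-1.35 ± 0.14), DDX60L (-1.59 ± 0.17) and PARP9 (-1.39 ± 0.15, a region of 5 bp). For the DDX60L region the difference between MPS1i and DMSO was not called (-1.03 ± 0.26, edgeR, adjusted p = 0.146). The IFI16 region had 108 and 98.5 CPM in IFNAR1sg MPS1i, against 277 and 249 CPM in SCR MPS1i, with all 4 DMSO libraries between 33.2 and 33.9 CPM. With no filter on low counts, the region opposite the OAS genes loses its call.

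**Figure D5:**
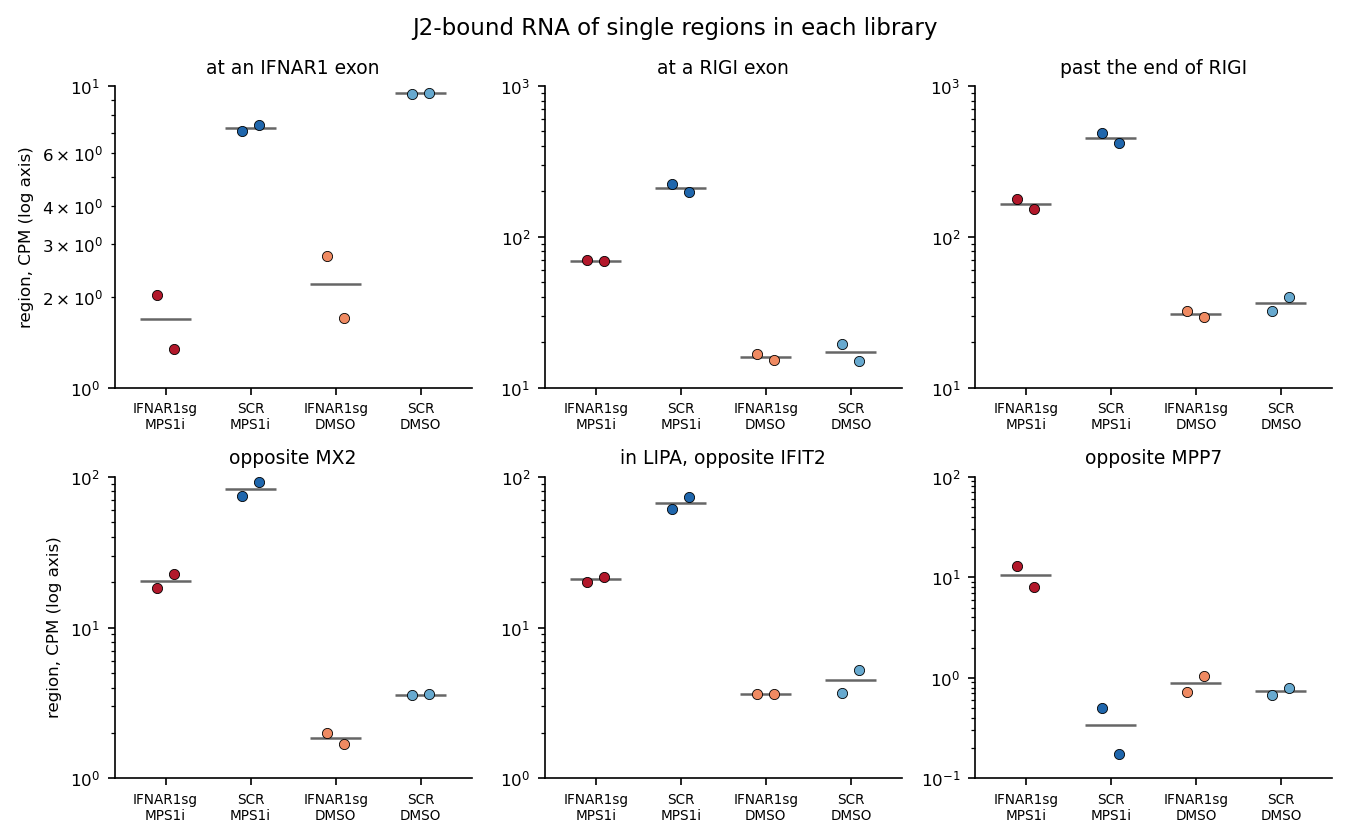
CPM (log axis) in each library of the 4 groups for 6 regions; points are libraries and grey lines group means. The IFNAR1 region separates the genotypes in MPS1i and in DMSO, the 4 regions at RIGI, MX2 and IFIT2 are highest in SCR MPS1i, and the region opposite MPP7 is highest in IFNAR1sg MPS1i at 13.005 and 8.05 CPM.

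Of the 10 named higher regions 5 lay side by side on chromosome 21 between positions 8988748 and 9001163, plus strand, outside any gene of that strand. The region chr21:8993640-8995701 had 50.3 and 25.5 CPM in IFNAR1sg MPS1i, against 1.26 and 1.59 CPM in SCR MPS1i, a difference of 4.69 ± 0.38 (edgeR, adjusted p = 1.71e-15). Its neighbour chr21:8998040-9001163 had 52.5 and 30.2 CPM in IFNAR1sg MPS1i, against 0.758 and 2.11 CPM in SCR MPS1i. The one of the 5 with the largest p, chr21:8991278-8993629 with an ACRO1 satellite, is not called without IFNAR1sg MPS1i replicate 1 (3.26, adjusted p = 0.0754). The others included a region opposite MPP7 (chr10:28052791-28254880, plus strand) with 13.005 and 8.05 CPM in IFNAR1sg MPS1i, against 0.506 and 0.176 CPM in SCR MPS1i (4.98 ± 0.63, adjusted p = 6.14e-08). A region of chromosome 19 (chr19:27681116-27793386, plus strand) that begins with HSAT4 satellites had 49.7 and 25.6 CPM in IFNAR1sg MPS1i, against 9.61 and 10.2 CPM in SCR MPS1i (1.92 ± 0.26, adjusted p = 2.99e-07). Replicate 1 was above replicate 2 in all 10, as in the higher genes. A region in SHOC1 (chr9:111719781-111721300, minus strand) had 11.3 and 6.58 CPM in IFNAR1sg MPS1i, against 0 and 0 reads in SCR MPS1i. The last 2 of the 10 were chr2:94777057-94783800 (minus strand), with 16.2 and 8.32 CPM in IFNAR1sg MPS1i, against 0.253 and 0.881 CPM in SCR MPS1i (4.26 ± 0.56), and chr5:14017139-14018299 (minus strand), with 19.4 and 9.26 CPM in IFNAR1sg MPS1i, against 1.52 and 1.76 CPM in SCR MPS1i (3.09 ± 0.46).

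Repeat sums held few calls. Over 1787 repeat subfamilies 2 were lower (0.112%) and 3 higher (0.168%), with a median of 0.16, as for gene sums. Without TMM factors 2 were lower and 23 higher. The simple repeat (TTTTCC)n had 43.1 and 35.2 CPM in IFNAR1sg MPS1i, against 71.0 and 64.8 CPM in SCR MPS1i, and 34.5 to 36.1 CPM in DMSO. It was thus higher in SCR MPS1i than in IFNAR1sg MPS1i and than in DMSO, and it was also high after interferon beta, at 41.0 and 53.1 CPM in IFNAR1sg IFNb, against 156 and 139 CPM in SCR IFNb. After the pulse it had a difference of -0.79 ± 0.13 (edgeR, adjusted p = 2.86e-05). (CAGCC)n, also lower (-1.01 ± 0.24, adjusted p = 0.0195), is not called when any MPS1i library is left out. Of the reads of the acrocentric satellite ACRO1 in IFNAR1sg MPS1i, 118 of 128 and 39 of 51 lay in the region chr21:8991278-8993629. The subfamily thus mostly repeats that 1 region. ACRO1 had 18.5 and 6.84 CPM in IFNAR1sg MPS1i, against 1.77 and 2.11 CPM in SCR MPS1i (2.67 ± 0.42, edgeR, adjusted p = 9.93e-06). It is not called without IFNAR1sg MPS1i replicate 1 (1.79, adjusted p = 0.211). (GA)n (0.49 ± 0.11) and the LINE-1 subfamily L1MDa (0.44 ± 0.10) were also higher, and both calls are lost without either SCR MPS1i replicate, that of (GA)n also without IFNAR1sg MPS1i replicate 2 and that of L1MDa without IFNAR1sg MPS1i replicate 1.

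Of 55 repeat families 2 were lower (3.64%) and 8 higher (14.5%), and without TMM factors 2 were lower and 24 higher. Without IFNAR1sg MPS1i replicate 1 the families called were 1 lower and 4 higher. Only 2, both higher, were called when SCR MPS1i replicate 2 was left out. The 8 were acro (2.65 ± 0.50), ERV1? (0.67 ± 0.21), hAT-Tip100? (0.50 ± 0.11), Gypsy? (0.42 ± 0.09), Gypsy (0.28 ± 0.07), tRNA (0.28 ± 0.10), CR1 (0.26 ± 0.06) and ERVL-MaLR (0.21 ± 0.06), names as in the repeat annotation. ACRO1 was the 1 subfamily of acro that was tested, so acro is not a separate result. ERVL-MaLR, a group of ancient LTR elements, had 6320 and 5810 CPM in IFNAR1sg MPS1i, against 5345 and 5173 CPM in SCR MPS1i. The differences of the abundant families were small beside those of the genes, and Alu, which forms duplexes when inverted copies pair, was not called, at 40948 and 41737 CPM in IFNAR1sg MPS1i, against 37817 and 39504 CPM in SCR MPS1i (0.10 ± 0.07, adjusted p = 0.24). L1 was likewise not called (0.12 ± 0.06, adjusted p = 0.146). The lower families were Helitron? (-0.77 ± 0.27) and srpRNA (-0.44 ± 0.16). When 1 library of the 2 MPS1i groups was left out, every called family but hAT-Tip100? and Gypsy? lost its call in at least 1 case.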

How the data were processed

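RNA bound by the J2 antibody was sequenced from 12 libraries of NCI-H1944 cells, 2 in each of 6 groups of genotype and treatment. Per the submitters' processing notes, reads were handled with STAR, featureCounts, HOMER, cutadapt, Trimmomatic and Trim Galore on the build GRCh38 (hg38); their settings, the peak or region step and the handling of strand are not stated there. The deposited file gives whole-number counts of reads, not normalised, for 5254113 stranded regions of a median of 139 bp, of which 46.1% had 0 reads. The 12 library totals were 3739443 to 7430687 reads. Regions were placed against GENCODE release 29: 19287 share bases with an exon of their strand and hold 37.2% of reads. Most of these (14210, with 34.1% of reads) share at most 2 bases. Of 58780 gene identifiers 58252 were matched to a symbol.

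Counts were summed per gene, repeat subfamily and family over regions that share no base with an exon. A region was given to a repeat only where it names exactly 1. Each level was fitted with edgeR 4.0.16 (R 4.3.3), with TMM factors, filterByExpr (minimum count 10, minimum total 15, proportion 0.7) and the quasi-likelihood test over all 12 libraries and 6 groups, with Benjamini-Hochberg adjusted p-values over all features. DESeq2 1.42.0, other scalings, no filter, fewer libraries, a replicate block and sums with exon-sharing regions were alternatives. Promoter sequences and their motifs came from RefSeq tables (GRCh38.p14). Python 3.11.15, pandas 2.3.3 and bedtools 2.31.1 were used.

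The text names the 10 called gene sums and regions with the smallest p in each direction among those whose groups did not overlap, the 6 sums in each direction with the smallest p for the difference between MPS1i and DMSO, and every called family. For each gene list it names up to 4 called members and the 3 uncalled members with the highest level, and always IFNAR1, CDKN1A, ISG15, CXCL10 and IFNB1. Members and lists were chosen with earlier results of these data known. On simulated counts with 2-fold changes (1 on the log2 scale) the test recovered 18% of changed regions, 79% of changed gene sums and 94.4% of changed subfamilies, and at 2 on the log2 scale 89%, 99% and 100%. Features on the Y chromosome were not named, and 1 gene that the rule would name is not reported here.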

Additional observations from a re-analysis of the deposited data

Results flagged for a closer look

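Each result here has a genotype difference after the MPS1i pulse that differed from the genotype difference in DMSO, tested as an interaction term in edgeR and called at an adjusted p under 0.05. This held for 205 gene sums. Values are the MPS1i difference minus the DMSO difference on the log2 scale, so a negative value means that the knockout was lower relative to the wild type after the pulse than in DMSO.

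Among the antiviral, sensing and signalling genes the value was -1.39 for TRIM5, -1.10 for IFIT1, -0.65 for SP100, -2.04 for CMPK2, -0.87 for TRIM14, -0.998 for DDX60L and -1.15 for PLSCR1. It was -0.94 for IFIH1, -0.90 for OAS3 and -1.42 for OAS1, and -1.32 for USP18. Outside these lists it was -1.22 for RMI2, -0.72 for CHROMR, -0.94 for NLRC5, -1.45 for SAMHD1, -1.29 for KRT18 and -1.45 for the non-coding RNA ENSG00000278996, which differed in DMSO and not after the pulse.

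In the other direction the value was 5.69 for NTM, 4.83 for TENM2, 4.33 for SDK1, 2.94 for TENM3, 3.44 for FRMD6, 3.66 for MAGI2 and 2.58 for FRMD5. It was 1.81 for RORA, 3.30 for ANO2, 3.20 for EDIL3 and 2.96 for GNGT1.

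Among single regions the value was -1.49 for the RIGI exon region (chr9:32466441-32466642) and -1.22 for the region past the end of RIGI (chr9:32384578-32454991). It was -1.34 for the IFI16 region (chr1:159010161-159010253), -1.33 for the OAS2 region (chr12:112998410-112999191) and -1.35 for the PARP9 region (chr3:122552414-122552418). It was 3.65 and 3.71 for the chromosome 21 regions (chr21:8993640-8995701 and chr21:8988748-8991258), 4.68 for the region opposite MPP7 (chr10:28052791-28254880) and 1.86 for the chromosome 19 region (chr19:27681116-27793386).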

How the results depend on the processing

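For regions, 358 were called after the pulse with edgeR, 171 with no filter, and 156 to 529 when 1 library was left out. In DMSO 69 regions were called, 18 with no filter, 21 without the IFNb libraries, and 1 to 814 when 1 library was left out (814 without SCR DMSO replicate 1, 1 without IFNAR1sg DMSO replicate 2). The difference between the 2 was called in 55 regions, 9 with no filter, 92 by DESeq2, 28 without the IFNb libraries and 21 to 277 with 1 library left out, the 277 without SCR DMSO replicate 1. For gene sums, 924 were called after the pulse, 512 by DESeq2 (all 512 among the 924) and 377 to 1100 with 1 library left out. In DMSO 11 sums were called, 1 by DESeq2, 5 without the IFNb libraries and 0 to 50 with 1 library left out. The 0 came without SCR DMSO replicate 2 and the 50 without SCR DMSO replicate 1. The difference between the 2 was called in 205 sums, 98 by DESeq2 and 102 to 297 with 1 library left out. For repeat subfamilies, 5 were called after the pulse, 25 without TMM factors, 12 by DESeq2, 14 with the MPS1i libraries alone, 23 with exon-sharing regions and 2 to 11 with 1 library left out. The difference between MPS1i and DMSO was called in 1 subfamily, 0 without TMM factors, 0 by DESeq2, 12 with exon-sharing regions and 0 to 3 with 1 library left out; at an unadjusted p under 0.05 edgeR gave 104. For families, 10 were called, 26 without TMM factors and 2 to 14 with 1 library left out.

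Deviations from group means of same-numbered libraries correlated at -0.05 to 0.08 between groups, over all regions tested. Counting noise in regions with few reads draws such a correlation towards 0, so it cannot tell whether replicate numbers pair the samples. With a replicate block, the calls after the pulse were 576 regions, 930 gene sums, 13 subfamilies and 16 families, against 358, 924, 5 and 10 without it. In DMSO 196 regions were called with the block, against 69 without it. The block gave 167 regions and 2 subfamilies for the difference between MPS1i and DMSO, against 55 and 1 without it.

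Of the named features, LMNB1 (-0.27) and TPX2 (-0.27) changed sign, and were not called, when exon-sharing regions were added to their sums. No other called named feature changed sign under the alternatives run, of which there were 16 for sums and 15 for regions, but 15 uncalled gene sums did in 21 cases and stayed uncalled. With exon-sharing regions 7 uncalled sums were called, IFNAR1, STAT2, ADAR, APOL2, ECT2, TRIB3 and KRT8, and PARP10 was called in 4 cases with 1 library left out. Between 0 and 16 of the named results lost their call under a single alternative, the 16 without SCR MPS1i replicate 2. The antiviral effectors had 31 to 43 lower calls, 0 higher calls and a median of -0.999 to -0.880 under all of them. The cause of these shifts was not tested. With 2 libraries a group, changes of 1 on the log2 scale are mostly missed in single regions.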
